A study of Drosophila melanogaster with 22 samples.

Results

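The minus strand of the mitochondrial genome of Drosophila melanogaster carries the genes of ND5, ND4, ND4L and ND1, all membrane-arm subunits of respiratory complex I. tRNA genes lie around them and between them, except between ND4 and ND4L. Members were taken as every listed position of that strand below position 12700, which leaves out the mitochondrial rRNAs farther along. In at least 1 of 11 replicate pairs, 3087 such positions were listed, of 18653051 listed in the whole series, and 1067 were listed in all 11 pairs. Of the 3087, the 4 mRNAs held 2942, the 7 tRNA genes 85 and the stretches between genes 60.

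Heads came from virgin females of 1 day of age. Poly(A)-enriched RNA of each replicate was split into a pair of aliquots, 1 treated with CMC (N-cyclohexyl-N'-(2-morpholinoethyl)carbodiimide) and 1 mock-treated. Exp 1 held 3 such pairs of the genotype w1118, an isogenic background strain. Exp 2 held 4 w1118 pairs and 4 RluA-2 pairs, flies of the same background homozygous for a deletion of the whole RluA-2 locus, which encodes a relative of the RluA family of pseudouridine synthases. Each replicate was a pool of heads, and the labels do not say that pools came from separate crosses. The p-values of tests over replicates therefore measure the spread between these pools. Those of the test per position of CMC against mock come from read counts within 1 pair and do not measure that spread. The w1118 pairs of both experiments carry the locus intact.

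Mitochondrial mRNAs are made as long transcripts of each strand and are released largely by the removal of the tRNAs that lie between them. They end in short poly(A) tails, so poly(A) selection captures them. CMC forms a bulky adduct that remains on pseudouridine, the isomer of uridine, and stops reverse transcriptase 1 base before it. The termination ratio is the number of reads that end at a position divided by the reads that cover it, and the termination fold change is the CMC ratio over the mock ratio. On the minus strand a stop at a position places the base that would carry the adduct at the next higher position.

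The 22 libraries held between 12035142 and 30701799 reads assigned to genes. Along the RluA-2 gene, w1118 CMC libraries held 99 to 159 terminations and RluA-2 CMC libraries 12 to 40, and the mock libraries held 7 to 24 and 0 to 3. The photoreceptor markers ninaE, Arr1 and trp held 230753 to 598260 mock terminations per library. None were counted for Arr2, whose absence this does not show. The germ line markers osk, nos and vas, of which 1 of 3 had listed positions, held 0. A position was listed only where the CMC library of its pair had at least 1 termination, so mock terminations elsewhere were not counted, and every CMC ratio below is conditional on a stop.

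ND5 lies at 6409 to 8125 of the mitochondrial genome in the Release 6 assembly, ND4 at 8207 to 9545, ND4L at 9545 to 9835 and ND1 at 11721 to 12659, all read from the higher coordinate to the lower. ND4 and ND4L share 1 position, with no tRNA gene between them. They may therefore be parts of 1 message, and each mRNA named here is an annotated gene span. Of the 1717 positions of ND5, 43.7% to 59.2% were listed in a pair. ND4 had 41.3% to 53.1% of its 1339 positions listed, and ND1 38.7% to 54.6% of 939. ND4L, the shortest at 291 positions, had 24.7% to 38.8% listed.

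Reads on this strand came almost wholly from the mRNA sense. Positions in the 4 mRNAs made up 97.9% to 99.0% of the listed positions of the strand in each pair. The plus strand opposite the 4 mRNAs had 0 to 2 listed positions per pair, while the mRNAs themselves held 7446 to 23821 CMC terminations and 18800 to 65791 mock terminations. The minus strand opposite the 9 plus-strand mRNAs had 0 to 8 listed positions per pair.

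The tRNA genes were close to empty with 1 exception. trnC, which encodes the cysteine tRNA, had 9 to 23 listed positions in a pair and was listed in all 11 pairs. It held 338 to 393 mock terminations in the Exp 1 pairs, 64 to 252 in the Exp 2 w1118 pairs and 27 to 87 in the RluA-2 pairs. Its CMC terminations numbered 11 to 40 in every pair. trnQ, trnY, trnF, trnH, trnP and trnL2 had at most 5 listed positions in any pair, and several pairs listed none. trnL2 runs past position 12700 and was read only up to it. The part of poly(A) selection in the low tRNA values was not tested.

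Per position, ND4 and ND5 were the most deeply covered of the 4 mRNAs in the mock libraries of Exp 2 w1118, and ND4L the least. CPM here means reads per 1000000 gene counts of the library. Coverage at the positions listed in all 11 pairs averaged 71.6 ± 4.94 CPM for ND4 (SD, n = 4), 68.9 ± 3.17 for ND5, 59.8 ± 4.23 for ND1 and 47.3 ± 5.61 for ND4L. ND4 and ND5 lay within their spread of each other. In Exp 1 the order was ND4 at 110 ± 15.9 (SD, n = 3), ND1 at 86.5 ± 19.9, ND5 at 85.3 ± 20.6 and ND4L at 47.8 ± 4.68, and only ND4L lay outside the ranges of the others. In RluA-2 mock libraries ND1 at 71.8 ± 7.02 (SD, n = 4) and ND4 at 71.8 ± 7.16 had higher means than ND5 at 57.9 ± 7.40, with overlapping ranges.

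**Figure D1:**
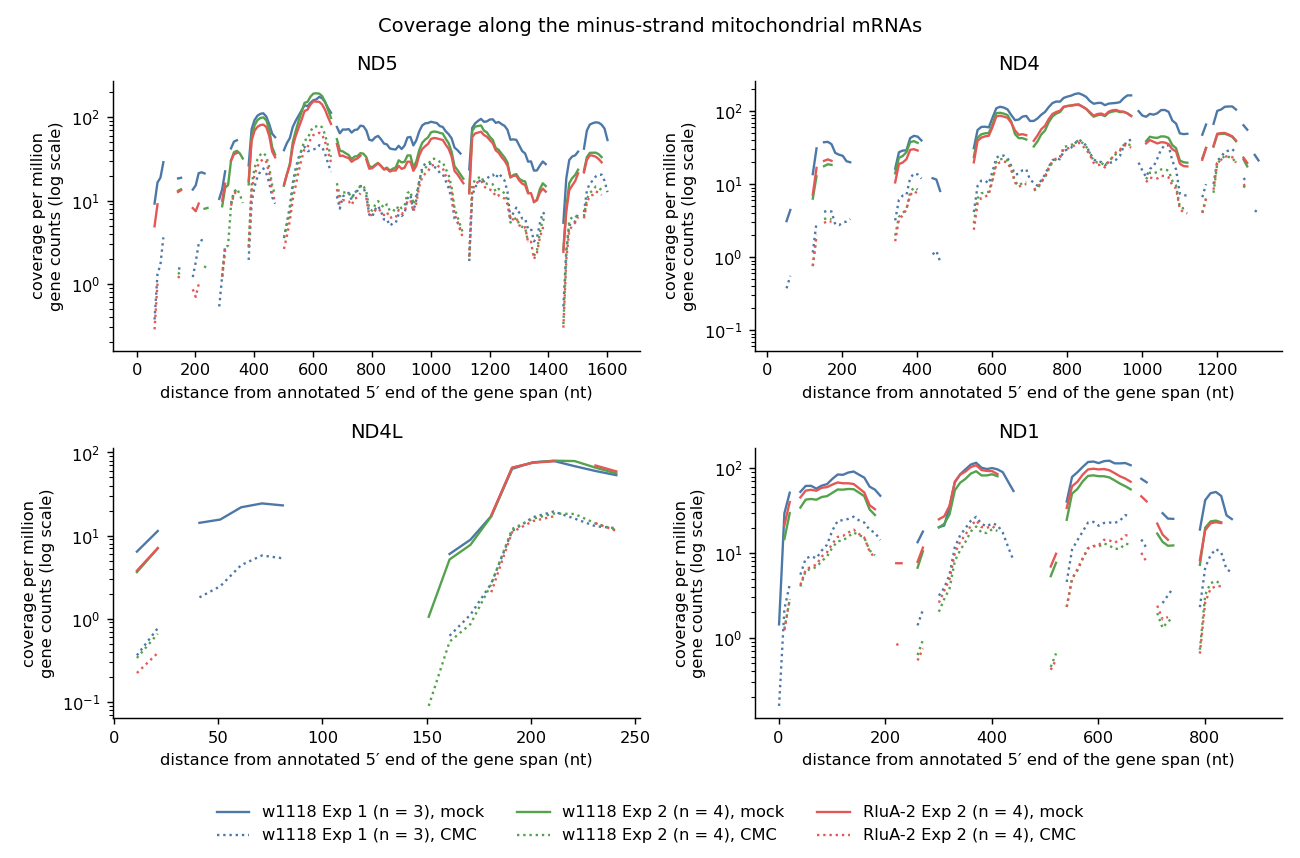
Coverage in CPM (reads over gene counts of the library, scaled to 1000000; log scale) against distance from the annotated 5′ end of each gene span in nucleotides, as group means in bins of 10 nucleotides. Solid lines are mock and dotted lines CMC libraries of w1118 Exp 1 (3 pairs), w1118 Exp 2 (4) and RluA-2 (4). Coverage rises and falls in separate blocks at the same places in all groups, and CMC lines lie below mock lines throughout. Both treatments are drawn at positions listed through the CMC library, so their gaps coincide by the listing.

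Coverage was uneven along every mRNA. It stood in blocks bounded by stretches with few or no listed positions, as the plot of coverage along the mRNAs shows. The CMC and mock libraries of a pair list the same positions, set by the CMC library, so their blocks share bounds by the listing alone. Cut into 3 stretches of equal length, ND5 averaged 37.4 CPM at its 3′ end in the mock libraries of Exp 2 w1118 (108 positions) against 84.3 in its middle stretch (235 positions). ND4 had 23.8 in its 5′ stretch (27 positions) and 82.9 in its middle stretch (201 positions). ND1 ran from 45.9 in its 5′ stretch (73 positions) to 71.4 in the middle (107 positions) and 51.0 in the 3′ stretch (30 positions).

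CMC treatment went with a loss of all 4 mRNAs relative to other transcripts. The question here was whether both aliquots of 1 RNA sample gave the same amount of each mRNA. All 5 minus-strand genes that could be tested fell in CMC libraries (edgeR quasi-likelihood test with the pair as a block), beside a background of 68.3% of 4156 genes called, 31.3% lower and 37.0% higher. These counts are terminations at positions listed in all 7 w1118 pairs, scaled to counts per 1000000 (CPM).

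ND4L, a small subunit of the membrane arm, fell by 2.58 on the log2 scale (SE 0.161, adjusted p = 3.84e-08, edgeR), or 5.99-fold. ND1, the subunit at the quinone-binding site, fell by 2.47 (SE 0.185, adjusted p = 1.48e-07, edgeR), or 5.54-fold. ND4 fell by 2.11 (SE 0.19) and ND5, the large subunit at the far end of the arm, by 1.87 (SE 0.204). ND1 had 1386, 1999 and 1360 mock terminations in CPM in Exp 1 and 946, 1011, 758 and 763 in Exp 2, and 308, 140, 383, 135, 274, 159 and 124 in the matched CMC libraries. ND5 ranged from 1587 to 3570 in mock and from 320 to 947 in CMC libraries. No CMC library reached the lowest mock library for either gene. trnC fell by 5.51 (SE 0.195), on only 3 to 15 CMC terminations per library against 60 to 324 in mock libraries. Every listed position holds a CMC termination, so these CMC counts lie near the lowest that listing allows, and the size of this fall is uncertain.

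The loss was larger on the minus strand than on the plus strand in each w1118 pair. The median log2 change was -2.47 over the 5 minus-strand genes, trnC among them, and -1.37 over the 9 plus-strand mRNAs. All 9 were called lower, with ND3 of the plus strand at -2.11. The mitochondrial rRNAs had a median of -1.03, the 31 tested nuclear complex I genes one of -0.48 with 29 called lower, and all 4156 genes one of 0.06. Coverage of the 4 minus-strand mRNAs, at positions listed in all 11 pairs, changed by between -3.86 (Exp 1 replicate 2) and -0.97 (Exp 2 replicate 3) from mock to CMC in w1118, with no scaling for depth. Coverage of the plus-strand mRNAs changed by between -2.56 and -0.21 in the same 2 pairs. The minus-strand value was lower in 7 of 7 pairs, by 0.84 ± 0.388 (SD, n = 7) on the log2 scale (exact sign-flip test, two-sided, p = 0.0156, the smallest it can give, adjusted p = 0.026 over 5 comparisons).

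**Figure D2:**
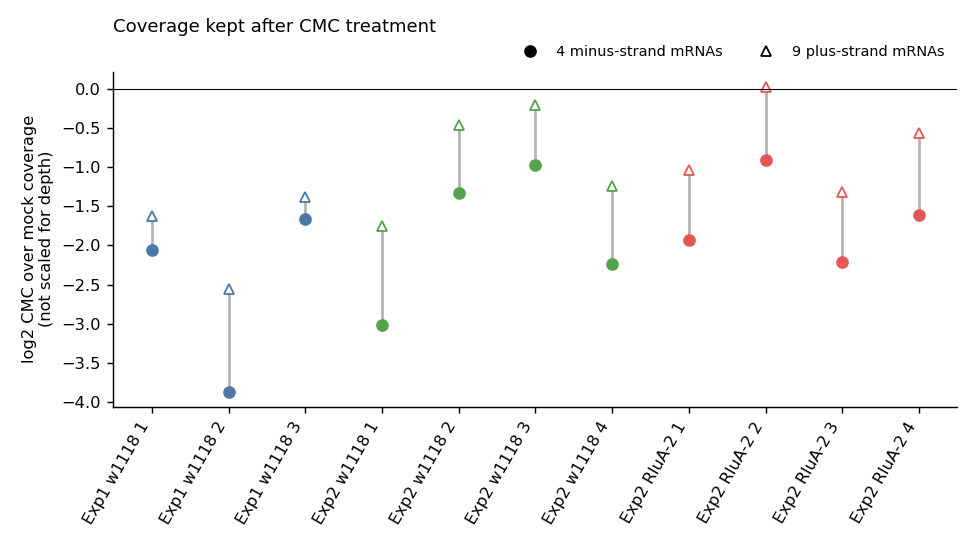
log2 ratio of CMC to mock mean coverage, unscaled for depth, in each of the 11 pairs, for the 4 minus-strand mRNAs (filled circles) and the 9 plus-strand mRNAs (open triangles) of the same libraries. The circle lies below the triangle in every pair, and Exp 1 w1118 replicate 2 is the lowest for both at -3.86 and -2.56.

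The 2 strands therefore stood farther apart in CMC than in mock libraries. Plus-strand mRNAs were covered 2.94 to 4.08 times as deeply as minus-strand mRNAs in the w1118 mock libraries and 4.08 to 8.91 times as deeply in the w1118 CMC libraries. RluA-2 gave 4.31 to 5.01 times in mock and 8.01 to 10.1 times in CMC libraries. The difference between strands in the CMC loss was 0.03 (SE 0.113) smaller on the log2 scale in RluA-2 than in w1118 of Exp 2, within the spread of the pairs (exact permutation test, two-sided, p = 0.83, adjusted p = 1.0 over 15 comparisons).

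Within the strand, ND1 was lost more than ND5. The log2 ratio of ND5 to ND1 terminations was higher in the CMC than in the mock library in 7 of 7 w1118 pairs, by 0.60 ± 0.339 (SD, n = 7, exact sign-flip test, two-sided, p = 0.0156, adjusted p = 0.026). In Exp 2 it rose from values between 1.078 and 1.109 to 1.90, 1.80, 2.17 and 1.89. In Exp 1 it rose from 0.86, 0.88 and 0.77 to 1.03, 1.24 and 1.03, a smaller step in every pair.

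The termination ratio of the listed positions was higher in CMC than in mock libraries on all 4 mRNAs. Because a position is listed only where its CMC library has a termination, this direction is partly set by the listing, and the ratios and their fold changes are given as a description. Summed over the listed positions, with 1 taken off each listed value, the 4 mRNAs had CMC ratios of 2.41%, 3.39% and 2.96% in Exp 1 w1118, 2.76%, 2.46%, 2.12% and 2.40% in Exp 2 w1118 and 2.38%, 2.21%, 2.43% and 2.25% in RluA-2. Mock ratios of the same pairs were 1.78%, 2.01% and 1.70%, then 1.90%, 1.68%, 1.58% and 1.66%, then 1.55%, 1.55%, 1.66% and 1.65%. No CMC ratio was as low as any mock ratio.

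The mean log2 termination fold change over the 7 w1118 pairs was 0.58 ± 0.145 (SD), or 1.49-fold. ND4 gave 0.64 ± 0.154, ND1 0.60 ± 0.107, ND5 0.58 ± 0.15 and ND4L 0.44 ± 0.106 (SD, n = 7). ND1 and ND5 differed by 0.02 ± 0.107 within pairs, with ND1 lower in 3 of 7. This order depends on the summing, in which strong stops weigh most. At positions with coverage of at least 50 in all 22 libraries, the log2 fold change was averaged over pairs. Its median over positions was 1.42 in ND4L (20 positions), 1.19 in ND1, 0.90 in ND4 and 0.83 in ND5.

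**Figure D3:**
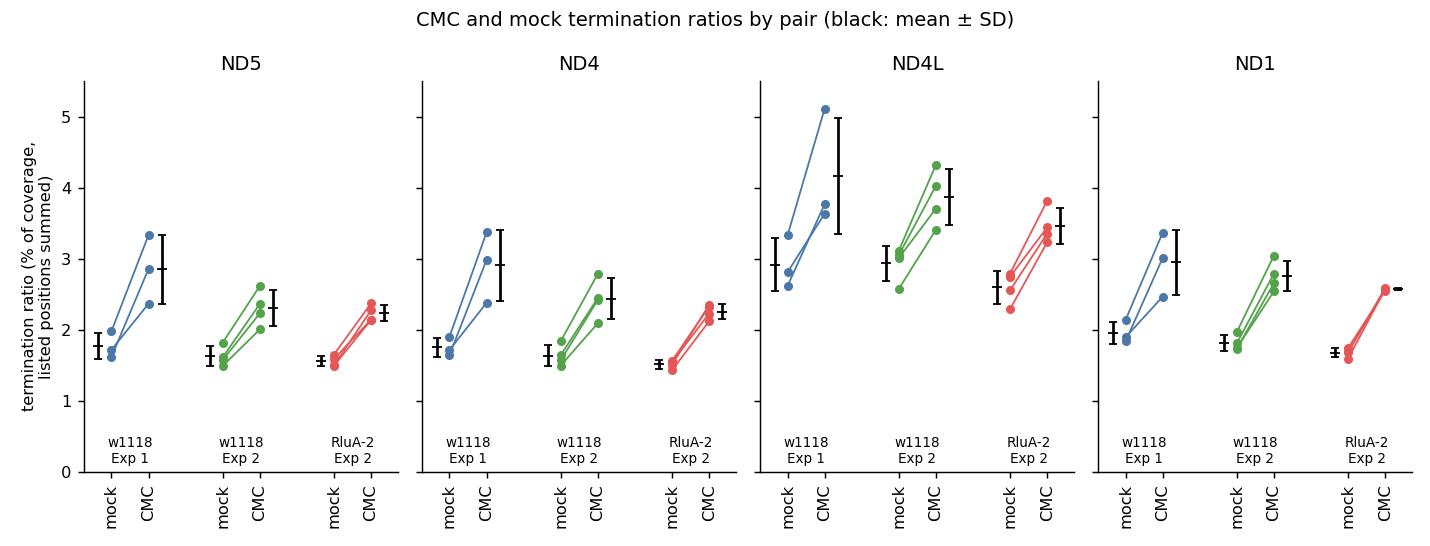
Termination ratio in percent (terminations over coverage, summed over listed positions) in the mock and CMC library of each pair, joined by a line, for each mRNA and group; black marks are the mean ± SD. Every line rises, and ND4L has the highest ratios in both treatments, with CMC values of 3.23% to 5.11%.

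ND4L had the highest ratios of the 4. Its mock ratio ran from 2.29% to 3.33% over the 11 pairs and its CMC ratio from 3.23% to 5.11%. The other mRNAs had mock ratios of 1.43% (ND4) to 2.13% (ND1) and CMC ratios of 2.00% (ND5) to 3.37% (ND4). In ND4L 1 position took 25.9% to 38.5% of all mock terminations in a pair, as described below, whereas the top position took 3.04% to 4.75% in ND1, 1.98% to 4.13% in ND5 and 1.80% to 2.41% in ND4.

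At listed positions the ratios of the minus strand stood slightly above those of the plus-strand mRNAs. The mock ratio was higher by 0.339 ± 0.0705 percentage points (SD, n = 7) in 7 of 7 w1118 pairs. The log2 fold change was higher by 0.08 ± 0.0668 in 6 of 7. The exception, Exp 1 replicate 1, differed by -0.0012. The strands differ in coverage, which bears on which positions are listed, so no test is given.

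Strong stops were present without CMC. They were ranked by mean mock ratio over the 7 w1118 pairs, among positions with coverage of at least 50 in the CMC and the mock library of each of these pairs. In ND4L the stop 190 nucleotides from the 5′ end (position 9646) had a mock ratio of 72.0 ± 4.69% and a CMC ratio of 70.9 ± 7.86% in w1118 (SD, n = 7). The next 2 positions, 191 and 192 nucleotides from the end, had mock ratios of 19.1 ± 2.61% and 6.50 ± 0.777%. RluA-2 had 72.8 ± 2.72% at position 9646 in mock libraries (SD, n = 4), inside the w1118 range.

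In ND5 3 positions that met this coverage are given. Position 7733, at 393 nucleotides from the 5′ end, had a mock ratio of 44.3 ± 9.24% and a CMC ratio of 52.9 ± 9.96% in w1118 (SD, n = 7). Position 7802, at 324 nucleotides, had 41.5 ± 5.03% and 59.7 ± 9.34%. Position 6984, at 1142 nucleotides, had 35.1 ± 6.09% and 33.9 ± 7.89%. At position 7733 the Exp 1 pairs averaged 35.4 ± 4.57% in mock (n = 3) and the Exp 2 w1118 pairs 50.9 ± 4.40% (n = 4), and RluA-2 lay between them at 46.5 ± 2.02% (n = 4). Position 6985, beside 6984, had higher mock ratios, of 41.8% to 71.5% in w1118 from the values as listed, but was not ranked, since its CMC coverage was listed at 46 in Exp 1 replicate 2.

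In ND4 positions 8378, 8347 and 9166 had w1118 mock ratios of 17.0 ± 3.92%, 15.4 ± 3.20% and 14.8 ± 4.65%, with CMC ratios of 20.3 ± 4.48%, 28.3 ± 5.95% and 19.5 ± 5.17%. In ND1 positions 12084, 12326 and 12325 had 14.9 ± 3.85%, 11.5 ± 1.75% and 11.1 ± 2.61% in mock and 19.3 ± 5.08%, 13.8 ± 3.06% and 12.8 ± 3.37% in CMC libraries. Position 8380 of ND4 and position 12112 of ND1 were too thinly covered in CMC libraries to be ranked, and had w1118 mock ratios, from the values as listed, of 17.6% to 39.9% and of 20.6% to 33.3%. These 2 positions and 6985 were chosen after their values were seen.

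The pattern of stops was similar in all pairs, and somewhat less so between the experiments. At the 912 positions of the 4 mRNAs with coverage of at least 50 in all 22 libraries, the log2 mock ratio correlated between pairs of 1 group at r = 0.826 to 0.917, and between w1118 and RluA-2 of Exp 2 at 0.836 to 0.919. Mock ratios correlated at 0.754 to 0.909 between Exp 1 and Exp 2 w1118 and at 0.783 to 0.876 between Exp 1 w1118 and RluA-2. CMC ratios correlated at 0.794 to 0.849 between w1118 and RluA-2 of Exp 2 and at 0.717 to 0.835 between Exp 1 and Exp 2 w1118. The mock and the CMC ratio of 1 pair correlated at 0.717 to 0.804, lowest in Exp 1 replicate 2. Fold changes correlated at only 0.335 to 0.46 between pairs of 1 group and at 0.243 to 0.382 between Exp 1 and Exp 2 w1118. These are correlations across positions, which share libraries and base composition and are not independent.

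A ratio more than 2-fold higher with CMC in all pairs was rare. These counts share the dependence on the listing given above. Of the 912 positions, 374 (41.0%) had a higher ratio with CMC in all 11 pairs, 26 (2.85%) were more than 2-fold higher in all 11, and 0 were lower in all 11. The plus-strand mRNAs had 1687 of 3770 positions (44.7%) higher in all pairs and 205 (5.44%) more than 2-fold higher. Among the minus-strand mRNAs, 55.2% of 174 ND1 positions and 34.4% of 387 ND5 positions were higher in all 11 pairs, with 40.2% of 331 in ND4 and 12 of 20 in ND4L.

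The next question was which positions stood above the mock library strongly enough to be called. Whether the base next to each stop is a uridine was not checked here, since no mitochondrial sequence was at hand. Each position of each pair was put to a one-sided test of proportions, CMC against mock ratio, on the values as listed. Positions were tested where the CMC ratio was the higher one. At least 5 listed terminations and 5 continuing reads were required in the CMC library. The p-values were adjusted over all positions tested in that pair. A position was called where adjusted p was below 0.05 in 1 or more w1118 pairs of Exp 1 and of Exp 2. On the minus strand, 6 of 1735 positions tested were called (0.346%), beside 0.195% of 1458834 positions in the whole series and 96 of 4562 (2.1%) on the mitochondrial plus strand. Single pairs called 0 to 35 minus-strand positions for w1118, and 1 to 5 for RluA-2. Exp 1 replicate 2, the pair with the largest loss of CMC coverage, called 35 of 662 tested, beside 4433 of 391038 in the whole series. On the plus strand this pair called 334 of 2939. Exp 1 replicate 1 called 0 of 1253, beside 2678 of 507995, and RluA-2 replicate 3 called 5 of 912, beside 1990 of 613385. The count rests on the variance of the test. It is 6 with 1 over the mock coverage as the mock term, a wide variance, and 692 with the pooled variance of a standard two-proportion test. It was 3 without Exp 1 replicate 2 and 2 without Exp 2 w1118 replicate 1.

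**Figure D4:**
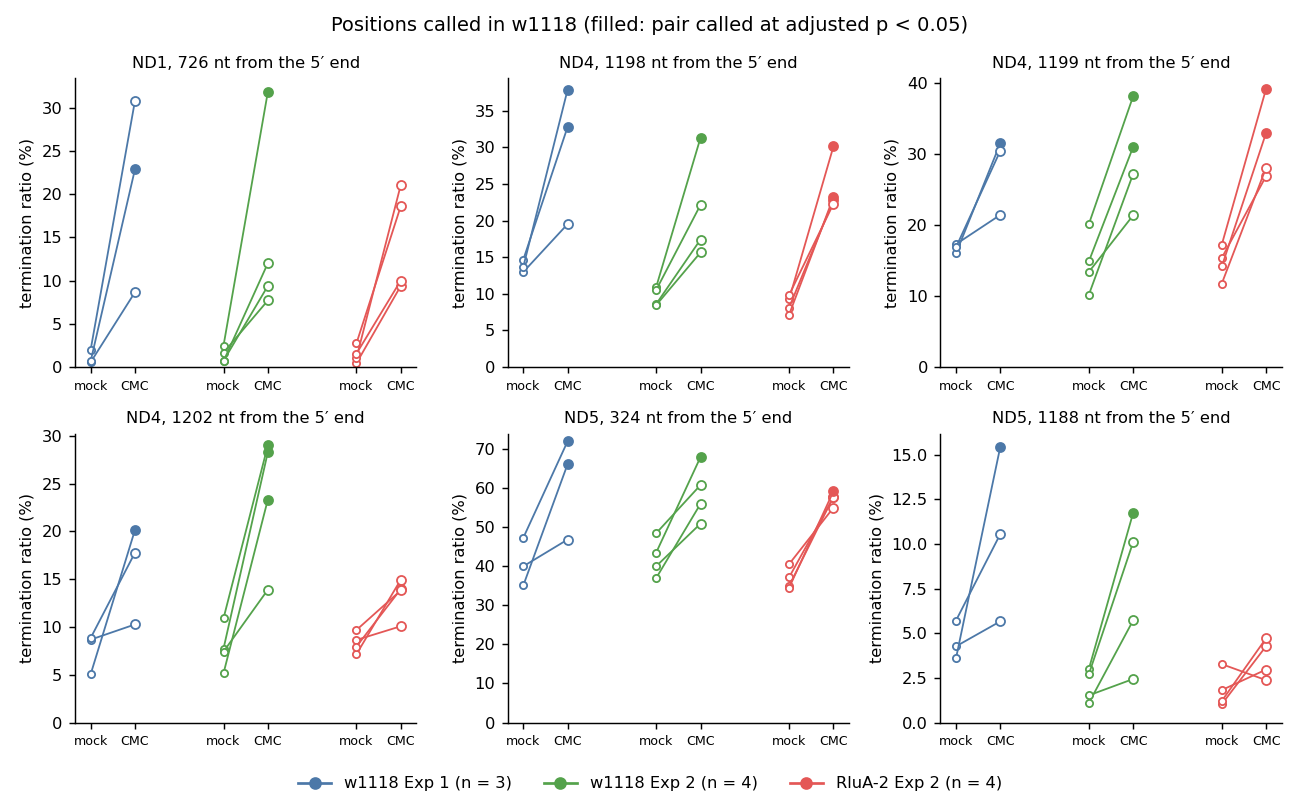
Termination ratio in percent in the mock and CMC library of each pair at the 6 called positions, named by gene and distance from the 5′ end; filled CMC points are pairs called at adjusted p below 0.05. At 1202 nucleotides in ND4, 4 of 7 w1118 pairs and 0 of 4 RluA-2 pairs are filled.

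In ND4, 3 of the called positions lay within 5 nucleotides of each other, at 8344, 8347 and 8348, so they share reads and a local sequence. Position 8344, 1202 nucleotides from the 5′ end (base 8345), was called in 4 of 7 w1118 pairs, more than any other on the strand. With values as listed, its CMC ratio was 10.3%, 20.1% and 17.8% in Exp 1 and 29.0%, 28.3%, 23.3% and 13.9% in Exp 2 w1118, against mock ratios of 5.04% to 10.9%. In RluA-2 the CMC ratios were 10.1%, 14.9%, 13.95% and 13.8% and the mock ratios 7.14% to 9.68%, and none of the 4 pairs was called. The RluA-2 values thus overlap the lower end of w1118.

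Position 8347 (base 8348) was called in 3 w1118 and 2 RluA-2 pairs. Its CMC ratio ran from 20.8% to 37.7% in w1118, with 1 taken off, and from 26.5% to 38.9% in RluA-2. Position 8348 (base 8349) was also called in 3 w1118 and 2 RluA-2 pairs, with mean log2 fold changes of 1.07 ± 0.446 in Exp 1 (SD, n = 3), 1.13 ± 0.274 in Exp 2 w1118 and 1.52 ± 0.246 in RluA-2 (n = 4 each). At both positions the CMC ratio was above the mock ratio in all 11 pairs, with lowest log2 fold changes of 0.31 and 0.59.

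In ND5 the called positions were 6938 and 7802. Position 7802 (base 7803) was called in 3 w1118 pairs and 1 RluA-2 pair, and its mean log2 fold change was 0.58 ± 0.344 in Exp 1, 0.48 ± 0.165 in Exp 2 w1118 and 0.64 ± 0.149 in RluA-2. Position 6938 (base 6939) was called in 2 w1118 pairs and 0 RluA-2 pairs, at CMC ratios of 2.44% to 15.5% for w1118, against 2.37% to 4.72% for RluA-2. Its fold changes spread widely, at 1.13 ± 0.873 in Exp 1, 1.73 ± 0.734 in Exp 2 w1118 and 1.07 ± 1.19 in RluA-2, where replicate 4 had a value of -0.46.

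In ND1 the called position was 11934 (base 11935), with the largest fold change and the lowest coverage of the 6. Its mean log2 fold change was 4.36 ± 0.661 in Exp 1 (SD, n = 3), 3.44 ± 0.846 in Exp 2 w1118 and 3.56 ± 0.953 in RluA-2 (n = 4 each). Listed CMC coverage was only 13 to 81 reads for w1118 pairs against 20 to 57 for RluA-2 pairs, with 2 to 8 and 2 to 12 listed terminations. In 4 w1118 pairs it held too few terminating reads to be tested, so 2 of the 3 tested w1118 pairs called it.

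No minus-strand position differed in fold change between RluA-2 and w1118 past the threshold. In a limma fit over the 778588 positions with coverage of at least 50 in all 16 libraries of Exp 2, 0 of 1050 minus-strand positions passed adjusted p below 0.05, as did 0 of all positions (0%). Before adjustment 27 of the 1050 had p below 0.05, against 5.33% of all positions. Of the 471 ND5 positions 2.76% did so, with 1.92% of 365 in ND4, 3.7% of 189 in ND1 and 0 of 25 in ND4L. The median difference, RluA-2 minus w1118, was 0.03 on the log2 scale in ND5, 0.03 in ND4, 0.10 in ND1 and 0.15 in ND4L, beside -0.04 over all positions.

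Position 8344 of ND4 differed by -0.94 (SE 0.458, adjusted p = 0.939, limma), from 1.59 in w1118 to 0.65 in RluA-2. It had been chosen for its calls in w1118, which favours a high value there. Position 6938 differed by -0.67 (SE 0.685), and 7802, 8347 and 8348 by 0.17, 0.10 and 0.40, each within its error. Position 11934 was too thinly covered to enter the fit. The lowest p of the strand belonged to position 7111 of ND5, where the fold change was 2.01 higher in RluA-2 (SE 0.483, adjusted p = 0.933, limma).

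Summed over the 4 mRNAs, the log2 fold change was 0.02 higher in RluA-2 than in w1118 of Exp 2 (SE 0.0453, exact permutation test, two-sided, p = 0.743, adjusted p = 0.914 over the 4 mRNAs and their sum). Single mRNAs differed by 0.01 (ND4, SE 0.0382) to 0.02 (ND4L, SE 0.0517). The mock ratio was lower by 0.101 percentage points (SE 0.0745, exact permutation test, p = 0.171, adjusted p = 0.214). The smallest p that 4 pairs against 4 can give is 0.0286.

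The amounts of the mRNAs were compared between genotypes in the mock libraries. None of the 5 minus-strand genes tested was called (edgeR, adjusted p below 0.05), beside 14.5% of 4379 genes, of which 6.49% were higher and 7.99% lower in RluA-2. At an unadjusted p below 0.05, 2 of the 5 differed, ND5 and trnC, and DESeq2 called 1, trnC (adjusted p = 0.0363). In bulk heads, fewer cells of a type and less RNA per cell cannot be told apart.

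The differences of ND5 and ND1 had opposite signs, and neither passed the threshold. ND5 had 1607, 1702, 1248 and 1249 mock terminations in CPM in w1118 and 1123, 1044, 1407 and 1019 in RluA-2, so the ranges overlapped through RluA-2 replicate 3. The log2 difference was -0.34 (SE 0.112, adjusted p = 0.0556, edgeR). It passed the threshold without w1118 replicate 3 (adjusted p = 0.0203), w1118 replicate 4 (0.0314) or RluA-2 replicate 3 (0.00698), all by edgeR. ND1 had 744, 805, 590 and 583 in w1118 and 710, 702, 890 and 705 in RluA-2, a difference of 0.14 (SE 0.102, adjusted p = 0.439, edgeR). ND4 differed by -0.12 (SE 0.108) and ND4L by -0.07 (SE 0.125). trnC had 8.77, 5.24, 6.74 and 3.73 in w1118 and 3.46, 3.24, 4.58 and 4.12 in RluA-2, with overlapping ranges and a difference of -0.68 (SE 0.235, adjusted p = 0.069, edgeR).

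Within libraries, where depth and scaling cancel, the shift between ND5 and ND1 was clear of the spread. ND5 made up 42.5%, 41.7%, 42.7% and 41.9% of the mock terminations of the 4 mRNAs in w1118 of Exp 2 and 38.4%, 36.5%, 37.7% and 34.6% in RluA-2. ND1 made up 19.7%, 19.7%, 20.1% and 19.6% and then 24.4%, 24.5%, 23.9% and 23.99%. Neither pair of ranges overlapped. ND4 shares were 32.6% to 33.7% for w1118, against 31.8% to 35.6% for RluA-2, and ND4L shares 4.59% to 5.13% and 4.46% to 5.84%.

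**Figure D5:**
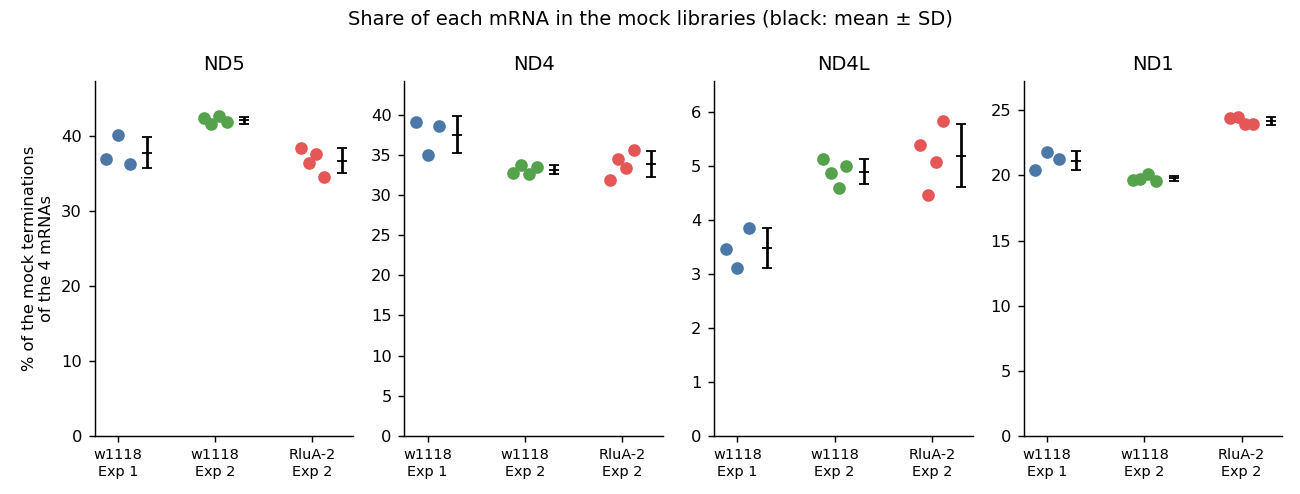
Share of each mRNA in the mock terminations of the 4 mRNAs (percent, positions listed in all 11 pairs), 1 point per library, with mean ± SD in black. RluA-2 libraries lie below the Exp 2 w1118 libraries for ND5 and above them for ND1, while Exp 1 w1118 libraries overlap RluA-2 for ND5.

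The log2 ratio of ND5 to ND1 was 0.49 lower in RluA-2 (SE 0.0327, p = 0.0286 by a two-sided exact permutation test, which can give no smaller value), in 4 of 4 libraries. This comparison was made after the values had been seen, and over the 15 genotype comparisons of this kind the adjusted p was 0.107. In CMC libraries the ratio was 0.40 lower (SE 0.164, exact permutation test, p = 0.0571, adjusted p = 0.171), with overlapping ranges of 1.80 to 2.17 (w1118) against 1.25 to 1.84 (RluA-2). The difference had the same sign in all 3 stretches of each mRNA. These are parts of the same mRNAs in the same libraries and give no separate support. Mock coverage of ND5 in CPM differed by -0.23, -0.28 and -0.18 on the log2 scale in its 5′, middle and 3′ stretches (exact permutation tests, unadjusted p = 0.0857, 0.0286 and 0.314), and that of ND1 by 0.28, 0.25 and 0.27 (exact, unadjusted p = 0.0857, 0.0286 and 0.114).

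The ratio also differed between the experiments of 1 genotype. Exp 1 w1118 mock libraries had log2 ratios of ND5 to ND1 of 0.77 to 0.88, 0.25 below Exp 2 w1118 (SE 0.0337, exact permutation test, two-sided, p = 0.0286, adjusted p = 0.0857 over 3 comparisons) and above the 0.53 to 0.66 of RluA-2.

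The ratio of plus-strand to minus-strand coverage was higher in the RluA-2 mock libraries. Minus-strand coverage itself changed little, at 67.4 ± 3.81 CPM in w1118 of Exp 2 and 65.0 ± 6.54 in RluA-2 (SD), with overlapping ranges. Plus-strand coverage in the mock libraries was 3.73, 3.60, 3.38 and 3.74 times that of the minus strand in w1118 of Exp 2 and 4.65, 5.01, 4.31 and 4.89 times in RluA-2. The groups did not overlap, and the log2 difference was 0.38 (SE 0.0583, exact permutation test, two-sided, p = 0.0286, adjusted p = 0.107 over 15 comparisons, chosen after the values had been seen). On the plus strand 2 of 9 mRNAs were called higher, COX3 by 0.35 and COX2 by 0.33 on the log2 scale, both core subunits of cytochrome c oxidase. Of the nuclear complex I genes, 1 of 31 was called higher and 0 lower, with a median log2 change of -0.01 beside 0.02 over all genes. A list of 22 genes held genes of mitochondrial transcription and RNA processing, with RluA-1 and RluA-2 added. Of these, 4 could be tested (RluA-1, bsf, TFAM and scu) and 1 was called higher, scu. Among markers of other cells, 1 of 4 fat body genes (Lsp2, by 1.65 on the log2 scale) and 1 of 2 tested glial genes (Gs2, by 0.25) were called lower in RluA-2. The other fat body genes went the other way without being called, Yp1 by 0.13, Yp2 by 0.12 and Yp3 by 0.16. Of the photoreceptor and neuronal genes, 0 of 3 each were called. The part of these cells in the mitochondrial values was not tested.

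CMC libraries gave wider errors for the genotype comparison. None of the 4 mRNAs was called, beside 11.1% of 4607 genes, and the lowest unadjusted p of the 4 was 0.0869 (ND5, edgeR). DESeq2 also called 0. Without w1118 replicate 2, ND1 was called higher, by 0.40 (adjusted p = 0.0171, edgeR). ND5 had a log2 difference of -0.31 (SE 0.168), ND4 of -0.14 (SE 0.198), ND4L of -0.15 (SE 0.186) and ND1 of 0.09 (SE 0.19). These libraries are the other aliquots of the same RNA samples and are not independent of the mock libraries.

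Between the experiments, mitochondrial transcripts of both strands were more abundant in Exp 1 w1118 than in Exp 2 w1118. In the mock libraries 4 of 5 minus-strand genes were called higher in Exp 1, beside 18.8% of 3976 genes called, 8.65% higher and 10.1% lower (edgeR). ND4 was higher by 0.88 (SE 0.125, adjusted p = 0.000518, edgeR), ND1 by 0.83 (SE 0.145, adjusted p = 0.00192, edgeR) and ND5 by 0.57 (SE 0.153, adjusted p = 0.022, edgeR), while ND4L was at 0.23 (SE 0.126, adjusted p = 0.241, edgeR). ND4 had 2090, 2494 and 1951 normalized terminations in CPM in Exp 1 and 1010 to 1410 in Exp 2. ND5 was no longer called without Exp 1 replicate 2 (adjusted p = 0.0568), Exp 2 replicate 3 (0.0647) or Exp 2 replicate 4 (0.073), all by edgeR.

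trnC was higher by 1.96 (SE 0.233, adjusted p = 0.00018, edgeR). On the plus strand 8 of 9 mRNAs were called higher, and both rRNAs. Experiment and sequencing batch cannot be told apart. Markers of other cells also differed, with 1 of 2 muscle, 1 of 3 tested photoreceptor and 1 of 3 tested neuronal genes higher in Exp 1 (by 1.43, 0.32 and 0.32, edgeR), and 1 of 2 tested glial and 2 of 4 fat body genes lower, and their part was not tested. The termination fold change of the 4 mRNAs was 0.15 higher in Exp 1 (SE 0.116, exact permutation test, two-sided, p = 0.2, adjusted p = 0.321), within the spread of its 3 pairs of 0.44, 0.75 and 0.80.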

How the data were processed

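Psi-seq libraries of female fly heads, 11 pairs of CMC and mock, were analysed. Members and lists were chosen with earlier results of these data known. The authors trimmed reads (Trimmomatic 0.33), removed rRNA reads with Bowtie2, aligned the rest with STAR 2.6.1a and counted pairs per gene with featureCounts 2.0.0. Per position, the authors deposited termination counts, coverage (a raw signal, inserts over the position) and their quotient, a fraction. Every deposited count and coverage value is 1 higher than the number of inserts. Therefore 1 was subtracted, except where values are given as listed and in the test per position of CMC against mock. A position is listed only where its CMC library has a termination. The deposited gene counts gave library totals of 12035142 to 30701799 and, as their identifiers could not be paired with symbols here, were replaced in gene tests by terminations summed within RefSeq gene spans over positions listed in every pair compared. Positions in more than 1 gene span of their strand were left out of these sums, so a gene without counted terminations need not be absent. The reference table gives no strand, which was taken from common knowledge and the reads. Mock terminations at unlisted positions are not counted, which raises CMC ratios and can move every value below.

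Genes were tested with edgeR 4.0.16 (quasi-likelihood, TMM, filterByExpr, Benjamini-Hochberg over all genes), positions between genotypes with limma 3.58.1 on log2 fold changes with 0.5 added to terminations and 1 to coverage, and summed ratios with exact permutation tests or exact sign flips (Python 3.11.15, SciPy 1.17.1). The smallest p is 0.0286 for 4 against 4 or 3 against 4 and 0.0156 for 7 pairs. The variance of the test per position was chosen because it follows the adjusted p-values of the study. The formula printed in its methods takes the difference of the reciprocal coverages and was not used. Named genes are all genes of the strand, all called positions and the 3 strongest mock stops per mRNA among positions with coverage of at least 50 in each w1118 library. Ratios of ND5 to ND1 and of plus to minus strand were added after seeing the data. Alternatives were DESeq2 1.42.0, RLE size factors, no filter, other thresholds, the replicate number as a block and leaving out each replicate. Scripts were tested on simulated data.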

Additional observations from a re-analysis of the deposited data

Results flagged for a closer look

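In 4 of 62 groups of values of Exp 2, 1 sample stood apart from the rest of its group by Dixon's criterion, where chance gives about 3.1. The criterion was not applied to Exp 1, whose groups held only 3 pairs. There the log2 ratio of CMC to mock coverage of the 4 mRNAs, both in CPM, was -3.37 in replicate 2. The other pairs of Exp 1 had -1.79 and -1.77. Mock coverage of ND4 was 79.0 CPM (reads per 1000000 gene counts) in Exp 2 w1118 replicate 2, against 68.4 to 69.8 in the other 3. The log2 termination fold change of ND1 was 0.54 in Exp 2 w1118 replicate 3, against 0.62 to 0.63. The log2 ratio of CMC to mock coverage of ND4 was -2.21 in RluA-2 replicate 3, against -1.85 to -1.81. The log2 fold change at position 8347 of ND4 was 0.81 in RluA-2 replicate 1, against 1.19 to 1.26.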

How the results depend on the processing

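Of 47 results, 567 alternative values were computed. All 5 genes were called lower with CMC under every alternative run, and 0 positions differed in fold change between genotypes under every alternative run. For RluA-2 against w1118 in mock libraries, the count of minus-strand genes called went from 0 to 1 with DESeq2 (trnC), 1 with RLE size factors (ND5), 1 with no low-count filter (ND5) and 2 with every listed position of the span (an alternative chosen after seeing the data), and from 0 to 2 with a replicate left out. In CMC libraries it was 0 to 1 with a replicate left out. The shares of all genes called under these alternatives are not given here. The count of positions called in w1118 was 6, but 692 with the pooled variance, 3 at adjusted p below 0.01, 1 when 4 pairs were required, 4 with a log2 fold change above 1, 4 with 1 taken off each listed value, 7 with 10 reads, and 2 to 6 with a replicate left out.

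The genotype difference in the fold change of the 4 mRNAs changed sign with a replicate left out, ranging from -0.0103 to 0.0465. The same held for ND5 (-0.0106 to 0.0466), ND4 (-0.0226 to 0.0248), ND4L (-0.00878 to 0.0531) and ND1 (-0.0131 to 0.0343), and for ND1 between experiments (-0.0859 to 0.0808). ND4 also changed sign with counts as listed (-0.0108) and with the median over positions (-0.00137), and ND1 with counts as listed (-0.0257) and at positions listed in all pairs (-0.00438). Amounts that changed sign with a replicate left out were ND4L in mock (-0.169 to 0.0176) and, in CMC libraries, ND4 (-0.31 to 0.18), ND4L (-0.26 to 0.14) and ND1 (-0.0448 to 0.405). The cause was not tested.

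With the replicate number as a block, 0 genes were called in mock and 0 in CMC libraries and 0 positions differed, the fold change difference was 0.0194 (exact sign-flip test, p = 0.75) and that of the mock ratio -0.101 (p = 0.375, exact). The ND5 to ND1 ratio was -0.49 and the plus to minus ratio 0.38 with the block (exact p = 0.125 each, the smallest that 4 pairs allow). Numbers do not pair the genotypes: deviations of same-numbered libraries correlated at -0.029 to 0.007 in mock and 0.004 to 0.104 in CMC libraries. Without the pair block, CMC against mock called 5 genes.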
